A study of Mus musculus with 66 samples.

Results

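The Ski complex and the RNA exosome are the machines that degrade RNA from its 3' end. In the cytoplasm the Ski complex, built from the helicase Skiv2l (Ski2), the scaffold Ttc37 (Ski3) and the WD-repeat protein Ski8, feeds mRNAs into the exosome, and the short isoform of Hbs1l (a Ski7-like protein) bridges both assemblies. The exosome has a barrel of RNase PH-like subunits such as Exosc4 and Exosc9, a cap with RNA-binding subunits such as Exosc2 and Exosc3, and the nucleases Dis3 and Exosc10. In the nucleus it works with the helicase Skiv2l2 (Mtr4), which is part of the adaptors that bring in early-terminated and antisense transcripts. Ski8 is of interest here because the same protein is a subunit of the PAF complex, the RNA polymerase II elongation factor that also holds Paf1 and Cdc73, so that depletion of Ski8 touches both assemblies.

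The group described is the 10 genes Skiv2l, Ttc37, Hbs1l, Exosc2, Exosc3, Exosc4, Exosc9, Exosc10, Dis3 and Skiv2l2, taken by gene symbol from the tables. All 10 were among the 15856 genes listed by 3'READS, which sequences the 3' ends of poly(A)+ RNA, and 4 of them (Hbs1l, Exosc4, Exosc10 and Skiv2l2) were among the 9999 genes listed by RNA-seq. The cells were C2C12, a mouse myoblast line, given 50 nM siRNA for 48 h: a control siRNA (siCtrl here, siNS in the labels), or one directed at Paf1, at Cdc73 or at Ski8, whose gene symbol is Wdr61, with no other allele or agent in any group. Each assay had 7 libraries, a siCtrl, a siPaf1 and a siCdc73 library in each of batch 1 and batch 2 and a siSki8 library in batch 2 alone. The siSki8 values therefore had no replicate, and their p-values borrow the spread of the other groups. The labels do not say whether libraries of a group came from separate cultures, so p-values measure the spread between libraries, which may be partly technical.

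RNA-seq libraries held from 2796693 to 8160386 reads over listed genes, and 3'READS libraries from 5302728 to 14340927 poly(A) site supporting (PASS) reads. The knockdowns were visible in every targeted library. In RNA-seq, Wdr61 stood at 5.97 CPM (reads scaled to a common library total after TMM normalization) in siSki8 cells against 49.8 and 129 in siCtrl cells, Paf1 at 20.3 and 31.1 in siPaf1 cells against 107 and 160, and Cdc73 at 14.2 and 22.0 in siCdc73 cells against 109 and 98.4. Summed over the 4 of 5 myoblast markers that RNA-seq listed, the level was 1050 to 3230 CPM, and over the 2 of 6 listed myotube markers (Ckm and Tnnt3) it was 2.52 to 41.8. In 3'READS the myoblast sum was 695 to 1910 and the myotube sum (5 of 6 markers) 70.9 to 86.1 in siCtrl, 105 to 244 in siPaf1, 23.9 to 64.7 in siCdc73 and 114 in siSki8 cells. Of the defining markers, Pax7 stood at 47.5 and 5.89 CPM in siCtrl by RNA-seq and was listed at 0 there by 3'READS. Myod1 stood at 0.300 and 0.378 CPM by 3'READS, and RNA-seq did not list it. These sums differed between groups, and their part in the results below was not tested. In bulk RNA, fewer cells of a type and less RNA per cell cannot be told apart. In the siPaf1 library of batch 2, 260 genes with at least 30 PASS reads stood more than 20-fold above every other library. The number of the 10 genes among them was 0.

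The poly(A) sites that carry the reads of these genes are shown first, because the site results turn on them. The 3'READS table listed 37 sites for the 10 genes, of which 19 lay in the 3'-most exon or past it (by up to 2305 bases, for Dis3), 15 in introns, 2 in internal exons and 1 upstream and antisense. Each sequence below is the 30 bases of the mouse genome (mm9, NCBIM37) that end at the mapped site, read 5' to 3' on the strand of the gene, with the hexamer AATAAA or, failing that, ATTAAA in capitals. Positions in genes follow GENCODE vM1.

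Exosc10 intron 19, chr4:147950891-147950920, plus strand: tgtAATAAAgtacataaataatatagttta
Exosc10 last exon, chr4:147956477-147956506, plus strand: taaaaccATTAAAatgtattcctaccagaa
Hbs1l intron 5, chr10:21056958-21056987, plus strand: tctacatAATAAAgcactggaattcagcta
Hbs1l intron 7, chr10:21062436-21062465, plus strand: cacataaatgcatcagcgagacgttcagaa
Hbs1l last exon, distal, chr10:21088662-21088691, plus strand: aagccagctAATAAAatgccttagtttgaa
Exosc4 last exon, proximal, chr15:76160161-76160190, plus strand: ttccagAATAAAggcctgttcttctcccga
Exosc4 last exon, distal, chr15:76161076-76161105, plus strand: gaacggtATTAAAggtcagaatgttaagaa
Skiv2l2 3' end, chr13:113657980-113658009, minus strand: tttcAATAAAaatgtacaggtgggacagtg
Skiv2l 3' end, chr17:34976186-34976215, minus strand: aaaaatataAATAAAgagcaaaccagagtg
Dis3 last exon, chr14:99476497-99476526, minus strand: ctacttttaaatacatttcaataattttaa

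Either hexamer was found on the gene's strand in 13 of the 19 sites of the 3'-most exon and in 7 of the 15 intronic sites of these genes. Over the whole table the shares were 53.6% of 38550 and 55.6% of 16766 sites. The Exosc10 intronic site holds the hexamer and lies 4 bases past the annotated end of a protein-coding model with 20 exons that stops in intron 19 of the 25-exon form. The Hbs1l intron 7 site and the main Dis3 site hold neither hexamer in this window. A match describes the sequence and does not show that the site is used.

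The levels of the group in control cells spanned a wide range. RNA-seq gave levels per length, as the RPKM values the authors deposited. In siCtrl batch 1 and batch 2, Hbs1l stood at 43.1 and 67.4 RPKM, Exosc4 at 36.6 and 48.3, Skiv2l2 at 28.6 and 38.8, and Exosc10 at 31.1 and 32.0. These placed the 4 genes at percentiles 89.3, 86.4, 82.9 and 81.9 of all genes listed, and Skiv2l2 and Exosc10 overlapped between the batches. In 3'READS, where a transcript gives at most 1 read per 3' end, the siCtrl level in CPM ran from 374 and 164 for Skiv2l2, over 107 and 74.9 for Exosc4 and 57.9 and 118 for Exosc9, to 3.00 and 4.73 for Skiv2l. Exosc2 (4.50 and 2.74) and Exosc10 (7.50 and 4.25) overlapped with Skiv2l at this depth.

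Ttc37 could not be compared. Its 4 listed sites all lay upstream of the last of its 44 exons, in introns 9, 15 and 29 and in exon 23, and held 0 to 7 reads per library. It did not pass the filter on low counts, so 9 of the 10 genes were tested in 3'READS and all 4 listed genes in RNA-seq.

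The spread between batches was large for several of these genes in 3'READS and had the same sign in each group. Hbs1l was higher in batch 2 by 1.59 on the log2 scale in siCtrl, 1.42 in siPaf1 and 2.33 in siCdc73 cells. Skiv2l2 was lower in batch 2 by 1.19, 0.44 and 0.85, with log2 values of -1.19, -0.44 and -0.85. Exosc4, Exosc10 and Dis3 also had lower values in batch 2 in the 3 groups, and Exosc3 and Exosc9 higher values. The labels call these numbers batches, so each test was run without the batch, as in the study's methods, and with it as a replicate block.

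**Figure D1:**
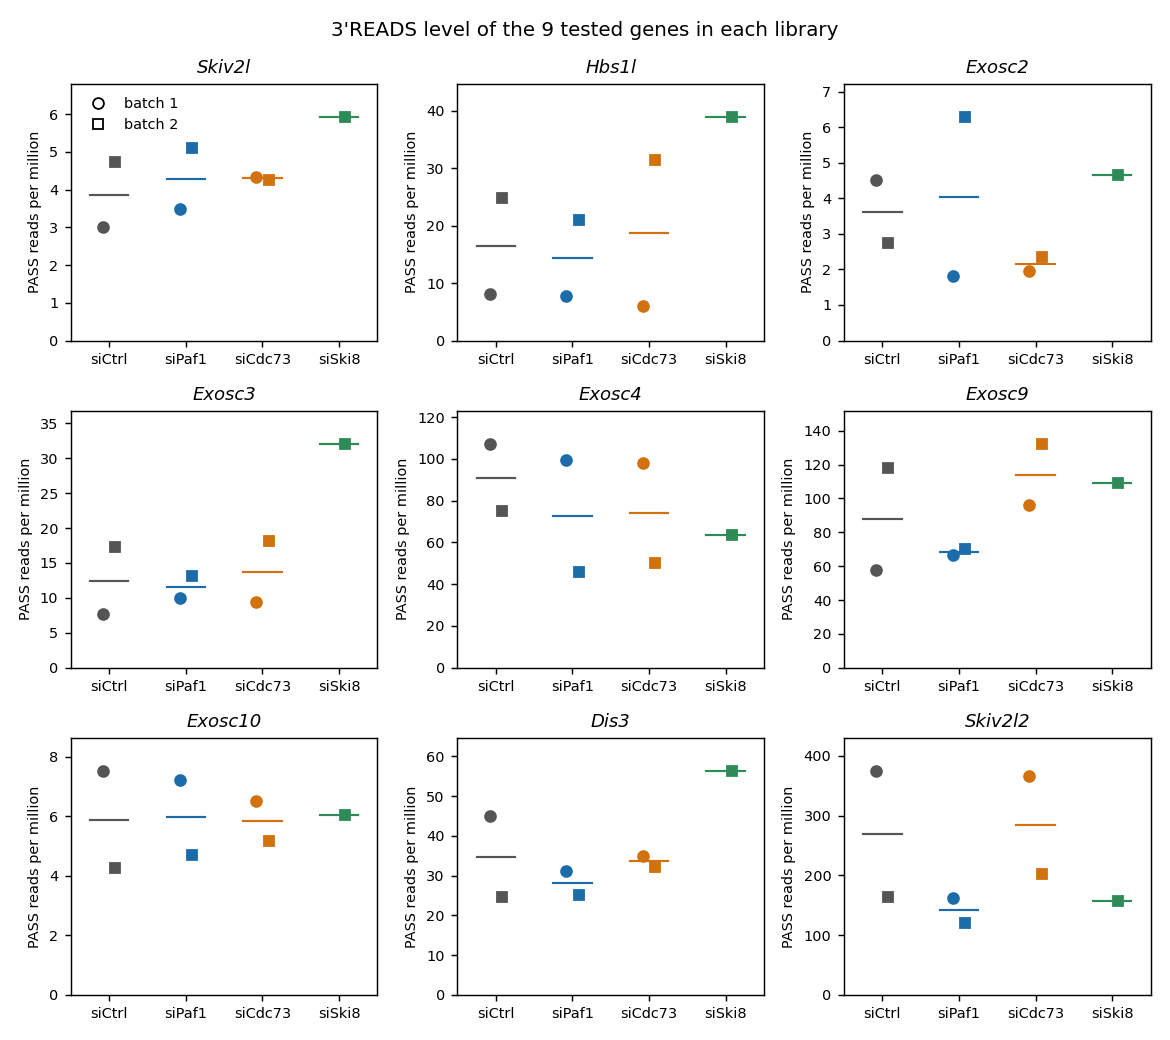
Level of the 9 tested genes by 3'READS, in CPM of PASS reads after TMM scaling, in each of the 7 libraries (circles, batch 1; squares, batch 2; line, mean of the group; siSki8 has 1 library). Hbs1l and Exosc3 sit higher and Skiv2l2, Exosc4 and Exosc10 lower in batch 2 of each replicated group, and Exosc3, Hbs1l, Dis3 and Skiv2l have their highest value in siSki8 cells.

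The first question was whether depletion of a PAF complex subunit changed the abundance of these mRNAs. Without the block, edgeR's quasi-likelihood test called 0 of the 4 genes in RNA-seq and 0 of the 9 genes in 3'READS after any knockdown, at an adjusted p under 0.05 and also at an unadjusted p under 0.05, and DESeq2 called 0 as well. The same test called 0% of all 6521 genes in RNA-seq and 0% of all 12579 in 3'READS, while the unadjusted threshold was passed by 17.7%, 21.1% and 5.54% of genes after siPaf1, siCdc73 and siSki8 in RNA-seq and by 13.5%, 15.3% and 3.33% in 3'READS. With the block, 1 of the 4 genes passed in RNA-seq after siPaf1 (Skiv2l2), 1 after siCdc73 (Exosc10) and 0 after siSki8, against 32.5%, 39.9% and 5.43% of all genes. In 3'READS with the block 0 of the 9 passed after each knockdown, against 18.8%, 22.5% and 0.151%. In each of these fits the share of the group that passed was no higher than the share of all genes.

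Skiv2l2 (Mtr4) was the gene with the clearest pattern. In RNA-seq it had 222 and 318 CPM in siCtrl cells (batch 1 and batch 2), 149 and 162 in siPaf1, 296 and 404 in siCdc73, and 466 in siSki8 cells. Both siPaf1 libraries lay below both siCtrl libraries. In 3'READS, where all its reads end at a single site 8 bases past the annotated gene end, the values were 374 and 164 in siCtrl, 163 and 120 in siPaf1, 367 and 203 in siCdc73, and 157 in siSki8 cells. Here too both siPaf1 values lay below both siCtrl values, with the siPaf1 library of batch 1 just under the siCtrl library of batch 2.

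In the blocked fit Skiv2l2 fell after siPaf1 in RNA-seq, with a log2 change of -0.77 ± 0.23 (SE) and an adjusted p of 0.00978 by edgeR, and its 3'READS change of -0.82 ± 0.28 had an adjusted p of 0.0519. Without the block the changes were -0.80 ± 0.37 and -0.93 ± 0.55, with adjusted p of 0.318 and 0.499. Within batches it was lower by 0.57 and 0.98 in RNA-seq (log2 changes of -0.57 and -0.98) and changed by -1.20 and -0.45 in 3'READS. DESeq2 gave -0.77 ± 0.43 in RNA-seq and -0.91 ± 0.60 in 3'READS, with adjusted p of 0.348 and 0.516, and adjusted p over all alternatives ran from 0.00978 to 0.729 and from 0.0519 to 0.920. Leaving out 1 library at a time moved the RNA-seq change between -1.02 and -0.52 and the 3'READS change between -1.41, without the siCtrl library of batch 2, and -0.22, without that of batch 1.

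After siCdc73 the same gene was not lower. Its log2 change was 0.38 ± 0.36 in RNA-seq and 0.08 ± 0.55 in 3'READS, with adjusted p of 0.590 and 0.978. A direct test of siPaf1 against siCdc73, chosen after the values were seen, gave a log2 difference of -1.15 ± 0.23 in RNA-seq with the block (adjusted p of 0.000439, 28.2% of genes passing) and -0.95 ± 0.28 in 3'READS (adjusted p of 0.0339, 14.4% passing). Without the block the differences were -1.17 ± 0.37 and -1.01 ± 0.55, with adjusted p of 0.280 and 0.556. In siSki8 cells the assays differed in sign, with a log2 change without the block of 0.79 ± 0.43 in RNA-seq and -0.77 ± 0.69 in 3'READS, and neither passed. That fit sets a library of batch 2 against siCtrl of both batches. With the block the changes were 0.63 ± 0.28 and -0.25 ± 0.37. Against the siCtrl library of batch 2 alone they were 0.55 and -0.06, so in 3'READS siSki8 stood close to the siCtrl of its own batch.

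Exosc10, the nuclear nuclease of the exosome, passed the blocked test in RNA-seq after siCdc73. Its levels were 206 and 224 CPM in siCtrl, 245 and 353 in siPaf1, 318 and 402 in siCdc73, and 359 in siSki8 cells. Every knockdown library lay above both siCtrl libraries. With the block it rose after siCdc73 by a log2 change of 0.73 ± 0.23 (adjusted p of 0.0105 by edgeR), while after siPaf1 the change was 0.45 ± 0.23 (adjusted p of 0.126) and after siSki8 0.57 ± 0.29 (adjusted p of 0.255). Without the block the siCdc73 change was 0.74 ± 0.36 with an adjusted p of 0.284, and adjusted p over its alternatives ran from 0.0105 to 0.666. A direct test of siPaf1 against siCdc73 gave a log2 difference of -0.28 ± 0.22 with an adjusted p of 0.371 in the blocked fit, so a difference between these knockdowns was not shown.

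**Figure D2:**
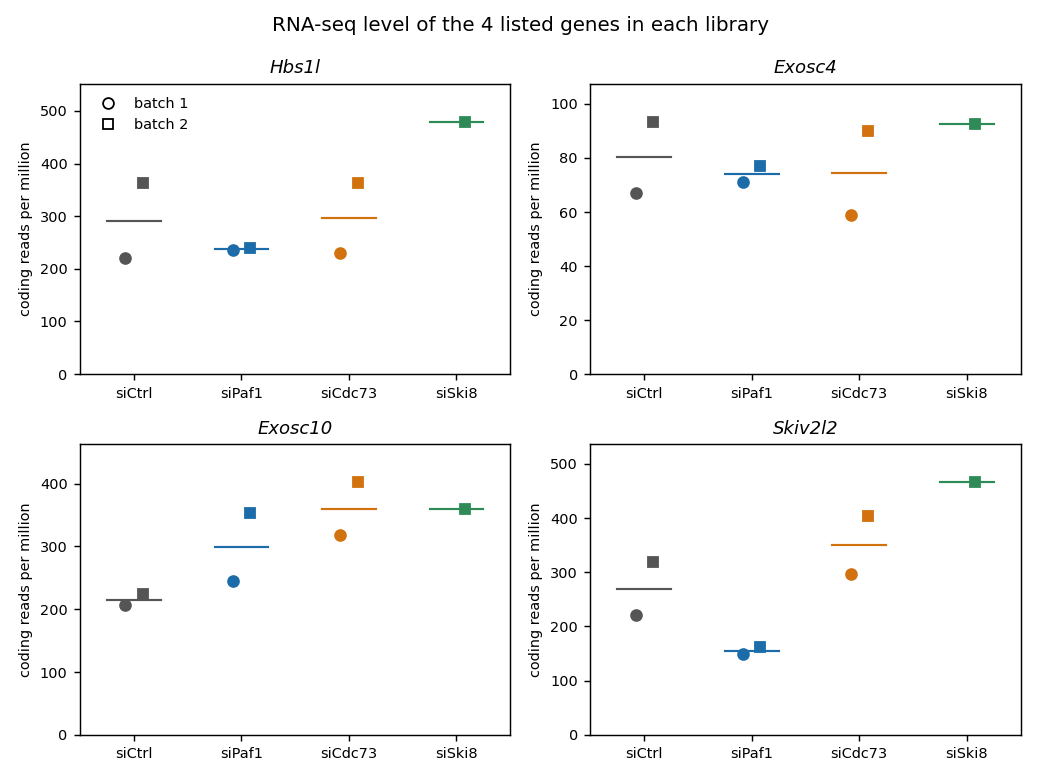
RNA-seq level of the 4 listed genes in CPM of coding reads after TMM scaling, in each of the 7 libraries (circles, batch 1; squares, batch 2; line, mean of the group; siSki8 has 1 library). The siPaf1 libraries of Skiv2l2, at 149 and 162, lie below all others, and every knockdown library of Exosc10 lies above both siCtrl libraries.

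The remaining genes of the Ski complex gave these values. Skiv2l, the cytoplasmic helicase, had only 20 to 77 PASS reads per library, or 3.00 and 4.73 CPM in siCtrl, 3.48 and 5.09 in siPaf1, 4.34 and 4.26 in siCdc73, and 5.92 in siSki8 cells. The siPaf1 and siCdc73 values overlapped with siCtrl, and the siSki8 value was the highest, with a log2 change of 0.61 ± 0.62 (adjusted p of 1). Hbs1l, whose long form rescues stalled ribosomes, had 220 and 363 CPM in RNA-seq in siCtrl, 236 and 240 in siPaf1, 230 and 364 in siCdc73, and 480 in siSki8 cells. In 3'READS it had 8.10 and 24.9 in siCtrl, 7.74 and 21.0 in siPaf1, 6.08 and 31.4 in siCdc73, and 38.9 in siSki8 cells. Its siSki8 value was the highest in both assays, at log2 changes of 0.72 ± 0.48 and 1.23 ± 1.06 (adjusted p of 0.781 and 1), while the siPaf1 and siCdc73 values overlapped with siCtrl.

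Hbs1l also has the short, Ski7-like isoform, and the RNA-seq table lists a further Hbs1l transcript, NM_001145209, whose exons the table does not give. The long form NM_019702 held 11977 reads over the 7 libraries (as did NM_001042593, of nearly the same length) and NM_001145209 held 27, with 2 and 5 reads in siCtrl, 5 and 2 in siPaf1, 9 and 1 in siCdc73, and 3 in siSki8 libraries. These counts are too low to compare. The ratio of counts to RPKM, as the median over libraries, put the length of NM_001145209 at 89.6% of the long form, and the coding length of the short GENCODE model, 1836 of 2046 bases, is 89.7% of that of the long model. In GENCODE vM1 that model has 5 exons, 4 of them shared with the 18-exon model, and ends in an exon of its own at chr10:21028905-21031004. How reads of shared exons were assigned is not stated, so the low count does not measure the isoform. The number of 3'READS sites listed in that last exon was 0.

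The cap and ring subunits of the exosome that belong to the group (Exosc2, Exosc3, Exosc4 and Exosc9) did not pass the test of level after any knockdown. Exosc2 had 4.50 and 2.74 CPM in 3'READS in siCtrl, 1.81 and 6.28 in siPaf1, 1.95 and 2.34 in siCdc73, and 4.66 in siSki8 cells, from 9 to 95 reads per library. Its siPaf1 libraries lay on either side of both siCtrl libraries, and both siCdc73 libraries lay below them (log2 change of -0.73 ± 0.74, adjusted p of 0.694). Exosc3 had 7.65 and 17.3 in siCtrl, 9.94 and 13.2 in siPaf1, 9.34 and 18.1 in siCdc73, and 32.0 in siSki8 cells. The siSki8 library stood above the rest, with a log2 change of 1.35 ± 0.65 (unadjusted p of 0.0758, adjusted p of 1 by edgeR, and 0.312 with the block).

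Exosc4 had 107 and 74.9 CPM in 3'READS in siCtrl, 99.6 and 45.9 in siPaf1, 98.1 and 50.3 in siCdc73, and 63.6 in siSki8 cells. In RNA-seq the values were 67.2 and 93.5, 71.2 and 77.1, 58.8 and 90.0, and 92.7 in the same order. The siPaf1 and siCdc73 values overlapped with siCtrl in both assays, and the siSki8 value lay below both siCtrl values in 3'READS and between them in RNA-seq. Exosc9 had 57.9 and 118 in 3'READS in siCtrl, 66.6 and 70.0 in siPaf1, 96.0 and 132 in siCdc73, and 109 in siSki8 cells. Its siPaf1 values lay between the siCtrl values, and its siCdc73 log2 change was 0.38 ± 0.47 (adjusted p of 0.758).

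Of the nucleases, Dis3, the catalytic subunit of the core exosome, had 45.0 and 24.5 CPM in 3'READS in siCtrl, 31.2 and 25.1 in siPaf1, 35.0 and 32.2 in siCdc73, and 56.2 in siSki8 cells. The siSki8 value was again the highest, at a log2 change of 0.70 ± 0.51 (adjusted p of 1, and 0.310 with the block). Exosc10 in 3'READS had only 30 to 73 reads per library, at 7.50 and 4.25 CPM in siCtrl, 7.23 and 4.70 in siPaf1, 6.51 and 5.18 in siCdc73, and 6.03 in siSki8 cells. Here the groups overlapped completely, unlike in RNA-seq.

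**Figure D3:**
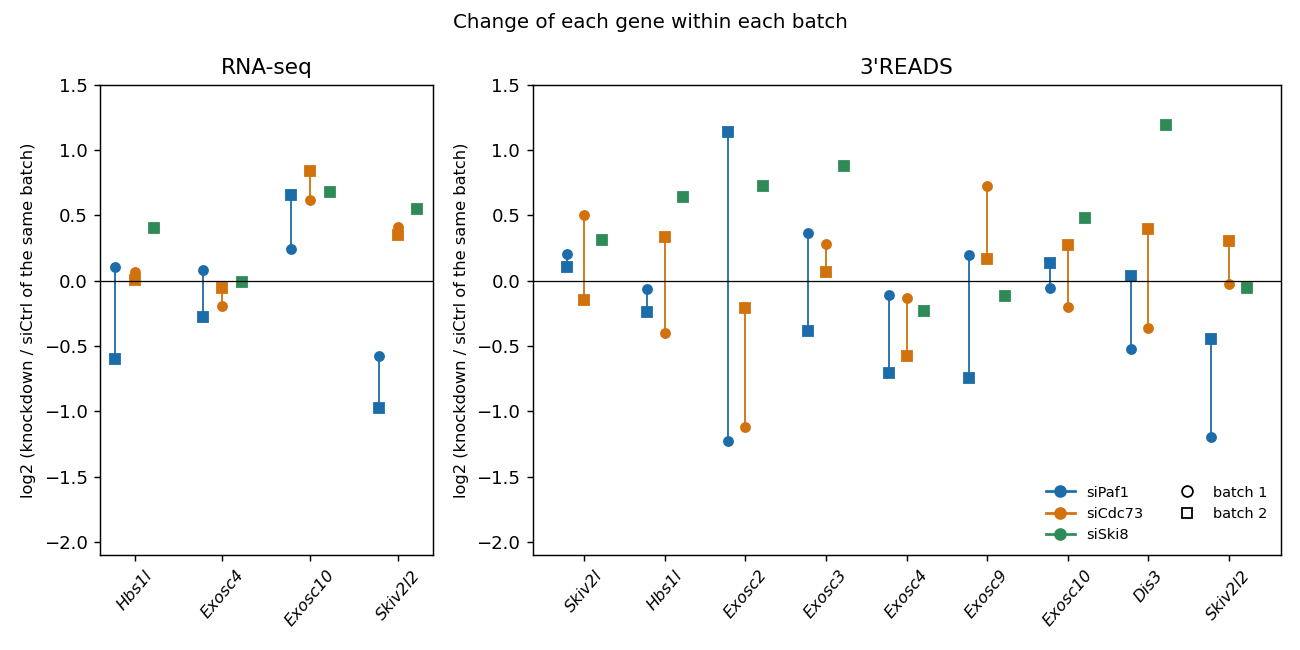
Log2 change of each gene in each knockdown library against the siCtrl library of the same batch, by RNA-seq (left, 4 genes) and 3'READS (right, 9 genes); circles are batch 1, squares batch 2, and a line joins the batches of a knockdown. Skiv2l2 is below 0 after siPaf1 in both assays and batches (-0.57 and -0.98, -1.20 and -0.45), and Exosc10 is above 0 in RNA-seq after every knockdown.

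Taken by their signs within batches, 4 of the 9 genes in 3'READS moved the same way in both batches after siPaf1 and 4 after siCdc73. In RNA-seq 2 of 4 and 4 of 4 did. The share of all genes that did so is not given, so nothing is drawn from these counts. The median log2 change of the group in 3'READS was -0.20 in siPaf1, 0.08 in siCdc73 and 0.37 in siSki8 cells, beside 0.06, 0.00 and 0.00 over all genes tested. In RNA-seq the medians were -0.20, 0.20 and 0.73, beside 0.01, -0.02 and -0.03. After siSki8, 4 of 4 genes in RNA-seq and 7 of 9 in 3'READS had a value above 0 without the block, where 48.2% and 46.7% of all genes did. That fit sets a library of batch 2 against siCtrl of both batches. With the block the counts were the same, beside 51.7% and 46.9% of all genes, and the medians were 0.547 and 0.385. Against the siCtrl library of batch 2 alone, Exosc4 was below 0 in RNA-seq (-0.012). In 3'READS Exosc4, Exosc9 and Skiv2l2 were (-0.235, -0.117 and -0.059), and the other tested genes lay above 0. With scaling by library size alone, which moved the median of all genes after siSki8 to -0.37 in RNA-seq, 3 of 4 were above 0 and Exosc4 was not. These counts rest on a single siSki8 library.

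The second question was whether the knockdowns moved reads between the poly(A) sites of these genes. The test of CDS-APA sets sites upstream of the 3'-most exon against those in it, and leaves out sites with under 5% of a gene's reads. Exosc10 was the only one of the group that then had both kinds of site and enough reads, and of its 6 upstream sites 1 was kept, in intron 19, so that the test set this site against the last exon. Its intronic site, at the end of the annotated 20-exon form, took 19 of 50 reads in siCtrl batch 1 and 35 of 45 in batch 2. It took 9 of 56 and 19 of 71 in siPaf1, 0 of 30 and 9 of 73 in siCdc73, and 11 of 53 in siSki8 libraries. As shares these were 38.0% (95% Wilson interval 25.9% to 51.8%) and 77.8% (63.7% to 87.5%) in siCtrl, 16.1% (8.69% to 27.8%) and 26.8% (17.9% to 38.1%) in siPaf1, and 20.8% (12.0% to 33.5%) in siSki8. In siCdc73 they were 0% (up to 11.4%) and 12.3% (6.62% to 21.8%). Both siCtrl libraries lay above every knockdown library. Intervals cover counting error only.

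Against all other reads of Exosc10, the intron 19 site fell after siCdc73 in the blocked fit, with a log2 change of -4.76 ± 1.49 and an adjusted p of 0.0370. Without the block it was -4.39 ± 1.69 with an unadjusted p of 0.0259 and an adjusted p of 0.642, and adjusted p over the alternatives ran from 0.0370 to 0.941. Such fitted values depend on the prior count, left at edgeR's default, since 1 of the siCdc73 libraries had 0 reads there. Leaving out 1 library at a time moved it between -9.33, without the siCdc73 library of batch 2, and -3.15, without the siCtrl library of batch 2. In the CDS-APA test, against the last exon alone, the same site fell after siCdc73 with the block, by a log2 change of -5.25 ± 1.48 (adjusted p of 0.00337), and without it the change was -4.58 ± 1.80 (adjusted p of 0.184). After siPaf1 the CDS-APA change was -2.65 ± 1.67 without and -2.79 ± 1.26 with the block (adjusted p of 0.422 and 0.0971). After siSki8 it was -2.93 ± 2.02 and -4.34 ± 1.68 (adjusted p of 1 and 0.750). Within batches the siCdc73 log2 ratio of the intron 19 site to the last exon changed by -4.66 and -5.45 and the siPaf1 ratio by -1.65 and -3.84. Leaving out 1 library at a time moved the siCdc73 change between -9.18, without the siCdc73 library of batch 2, and -2.89, without the siCtrl library of batch 2. None of these passed without the block.

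For the sum of all upstream reads of Exosc10 the siCdc73 change was still below 0, but it was smaller and was not called. All 6 upstream sites held 22 of 50 and 41 of 45 reads in siCtrl, 13 of 56 and 36 of 71 in siPaf1, 12 of 30 and 21 of 73 in siCdc73, and 14 of 53 in siSki8 libraries. In batch 1 the shares of 44.0% (31.2% to 57.7%) in siCtrl and 40.0% (24.6% to 57.7%) in siCdc73 had overlapping intervals, and in batch 2 they were 91.1% (79.3% to 96.5%) and 28.8% (19.7% to 40.0%). Within batches the log2 ratio of all upstream reads to the last exon changed by -0.23 and -4.49 after siCdc73 and by -1.35 and -3.17 after siPaf1. With all upstream sites kept, the siCdc73 change was -2.29 ± 1.87 without the block (adjusted p of 0.605) and -2.36 ± 1.34 with it (adjusted p of 0.263), a setting chosen after seeing the data. After siPaf1 it was -2.14 ± 1.88 and -2.15 ± 1.30 (adjusted p of 0.727 and 0.341). In the single siSki8 library it was -2.80 ± 2.25 without and -3.54 ± 1.72 with the block.

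In the CDS-APA test 2.38%, 4.13% and 0% of 1766 genes passed without the block after siPaf1, siCdc73 and siSki8, and 23.0%, 23.2% and 0.113% with it, so the call of Exosc10 stands among many. At an unadjusted p under 0.05 without the block, 20.3%, 20.1% and 1.87% passed, and Exosc10 did so after siCdc73 (0.0292). Each of the 5 upstream sites that the test left out held at most 8 reads in any library. The largest share among them was 26.7% (14.2% to 44.4%), 8 of 30 reads at an intron 14 site in siCdc73 batch 1, where siCtrl had fewer than 5% of its reads. Counted over its 3'-most exon alone, Exosc10 had 28 and 4 reads in siCtrl, 43 and 35 in siPaf1, 18 and 52 in siCdc73, and 39 in siSki8 libraries. The level of these reads gave log2 changes of 0.84 ± 1.04, 0.82 ± 1.05 and 0.97 ± 1.23 after siPaf1, siCdc73 and siSki8 (adjusted p of 0.787, 0.778 and 1), where the level over all sites gave 0.02, -0.01 and 0.04. The lowest of these counts, 4 reads, was that of the siCtrl library of batch 2.

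Hbs1l had reads at 3 intronic sites, at low depth. The intron 7 site held 1 of 54 and 1 of 263 reads in siCtrl, 3 of 60 and 26 of 318 in siPaf1, 6 of 28 and 17 of 443 in siCdc73, and 3 of 342 in siSki8 libraries. Its shares of 1.85% and 0.380% in siCtrl lay below the 5.00% and 8.18% in siPaf1 and the 21.4% and 3.84% in siCdc73 libraries, with 0.877% (0.299% to 2.55%) in siSki8. The log2 change was 3.16 ± 1.50 after siPaf1 and 3.51 ± 1.51 after siCdc73, with unadjusted p of 0.0607 and 0.0420 and adjusted p of 0.736 and 0.695, and with the block 3.27 ± 1.29 and 3.36 ± 1.29 (adjusted p of 0.134 and 0.128). Leaving out 1 library at a time moved the change without the block between 1.85, without the siCtrl library of batch 2, and 4.09, without that of batch 1, after siPaf1, and between 2.19, without the siCtrl library of batch 2, and 5.06, without the siCdc73 library of batch 2, after siCdc73. The intron 5 site at 21056987 held 2 and 0 reads in siCtrl, 7 and 17 in siPaf1, 1 and 1 in siCdc73, and 0 in siSki8 libraries, and its siPaf1 change of 3.31 ± 1.27 with the block had an adjusted p of 0.121. A further site in the same intron, at 21057906, held 3 and 3 reads in siPaf1 libraries and 0 in every other. The latter, with 6 reads in all, was under the minimum for a test, and neither of the others passed. All 3 sites together held 3 of 54 and 1 of 263 reads in siCtrl, 13 of 60 and 46 of 318 in siPaf1, 7 of 28 and 18 of 443 in siCdc73, and 3 of 342 in siSki8 libraries. Their shares of 21.7% and 14.5% in siPaf1 lay above the 5.56% and 0.380% in siCtrl. The 25.0% and 4.06% in siCdc73 overlapped with siCtrl across batches, and each lay above the siCtrl share of its own batch. Within batches the log2 ratio of these reads to the last exon changed by 2.06 and 4.90 after siPaf1 and by 2.36 and 2.93 after siCdc73. With no 5% rule, CDS-APA of Hbs1l had a log2 change after siPaf1 of 3.57 ± 1.76 without the block (adjusted p of 0.496) and rose with the block, in the setting chosen after seeing the data, by 3.67 ± 1.24 (adjusted p of 0.0424). After siCdc73 the changes were 2.60 ± 1.82 without the block (adjusted p of 0.549) and 2.655 ± 1.285 with it (adjusted p of 0.179). In that blocked fit 1, 0 and 0 of 5 genes of the group passed after siPaf1, siCdc73 and siSki8, against 7.79%, 9.95% and 0% of 4352 genes.

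**Figure D4:**
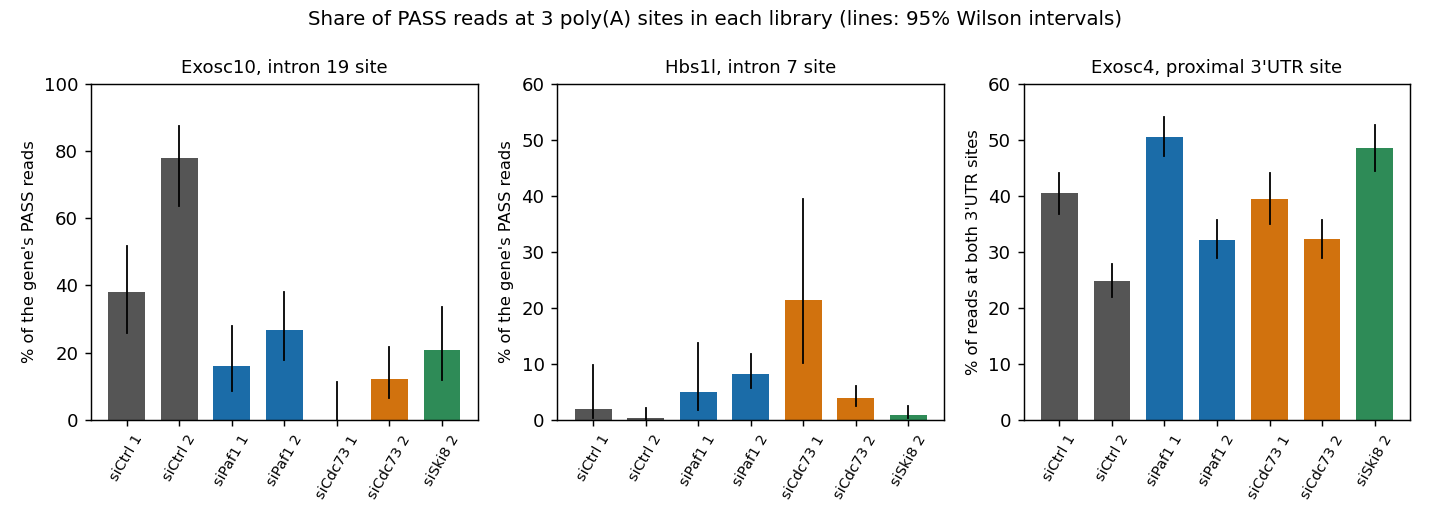
Share of PASS reads at 3 poly(A) sites in each library, in percent, with 95% Wilson intervals as lines: the Exosc10 intron 19 site and the Hbs1l intron 7 site over all reads of the gene, and the proximal site of Exosc4 over both of its 3'UTR sites. The Exosc10 share is 38.0% and 77.8% in siCtrl and at most 26.8% in the knockdown libraries, and the Hbs1l share is highest, at 21.4%, in siCdc73 batch 1.

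Over single sites, 22 of the 37 sites had enough reads for a test. Without the block 0 of the 22 passed after any knockdown, against 0%, 0.00713% and 0% of 28059 sites, and with the block 0, 1 and 0 passed, against 4.70%, 4.39% and 0.0214%. At an unadjusted p under 0.05 without the block, 0, 2 and 1 of the 22 did, against 6.99%, 7.06% and 1.27%. The 2 after siCdc73 were the intronic sites of Exosc10 and Hbs1l described above. The 1 after siSki8 was an intron 3 site of Exosc3, 5 bases past the end of the annotated transcript Exosc3-002. It held 3 and 4 reads in siCtrl, 1 and 0 in siPaf1, 0 and 9 in siCdc73, and 0 of 281 in siSki8 libraries, and 0 reads allow a share of up to 1.35% by the Wilson interval.

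Skiv2l used its main site for 20 of 20 and 50 of 50 reads in siCtrl, 20 of 27 and 74 of 77 in siPaf1, 7 of 20 and 58 of 60 in siCdc73, and 52 of 52 in siSki8 libraries. Reads at other sites were thus seen in all 4 siPaf1 and siCdc73 libraries, with larger shares in batch 1. A site 61 bases past the annotated end of Skiv2l-001 held 3 and 3 reads in siPaf1, 6 and 0 in siCdc73 libraries and 0 in siCtrl. A last-exon site held 4 and 0 reads in siPaf1 and 3 and 0 in siCdc73 libraries, and an intron 12 site 4 and 2 reads in siCdc73 libraries. No fold is given against 0 reads. Exosc2 used its main site, at the annotated gene end, for 29 of 30 and 27 of 29 reads in siCtrl, and in the shallow batch 1 libraries of siPaf1 and siCdc73 for 8 of 14 and 4 of 9. Exosc3 used its last site for 92.0% to 98.7% of reads in every library, and a site 72 bases upstream of it took 16 of 200 reads in siPaf1 batch 2.

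Within the 3'UTR, 4 of the genes had a pair of sites that could be tested for 3'UTR-APA. Exosc4 has sites 915 bases apart, and the proximal one took 40.4% and 24.7% of reads in siCtrl, 50.5% and 32.1% in siPaf1, 39.4% and 32.2% in siCdc73, and 48.5% in siSki8 libraries. Batch 2 was lower than batch 1 in the 3 replicated groups, and the siSki8 share of 48.5% (44.4% to 52.6%) lay above every other share of batch 2. Relative to the distal site, the proximal one had a log2 change of 1.00 ± 0.86 in siSki8 cells (adjusted p of 1), and with the block 1.43 ± 0.60 (unadjusted p of 0.0184, adjusted p of 0.470). In siPaf1 cells it was 0.56 ± 0.71 and in siCdc73 cells 0.23 ± 0.70, both with an adjusted p of 1.

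Dis3 used a site 2305 bases past its annotated end, inside the region of a gene model on the other strand, for a minor share of reads. The proximal site took 93.0% and 95.4% in siCtrl, 92.6% and 90.8% in siPaf1, 88.8% and 87.4% in siCdc73, and 97.0% in siSki8 libraries. Both siCdc73 libraries lay below all others and siSki8 above all others, with log2 changes of the ratio of -1.14 ± 0.67 and 0.96 ± 0.83 (adjusted p of 1 for both, and 0.370 and 0.855 with the block). Exosc9, with sites 82 bases apart, used the proximal one for 2.26% to 7.33% of reads, and Hbs1l, with sites 103 bases apart, for 11.1% to 19.6%. The siPaf1 and siCdc73 shares of Hbs1l lay between the siCtrl shares. For Exosc9 both siPaf1 shares (5.23% and 5.29%) lay above both siCtrl shares (4.40% and 4.98%) with overlapping intervals, and the siCdc73 shares (2.26% and 4.99%) lay on either side. None of the 4 genes passed after any knockdown without the block, where 0% of 4567 genes did, nor at an unadjusted p under 0.05, where 5.01%, 4.20% and 1.27% did. With the block 0 of the 4 passed, against 6.79%, 4.29% and 0.307%.

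Upstream antisense RNA, a class of transcript that the nuclear exosome is known to degrade, was listed for 1 gene of the group. The antisense site lay 2468 bases upstream of the annotated start of Exosc3-001, but inside the annotated span of the gene, which reaches chr4:45355604. Measured from the start of Exosc3-001, it lay farther away than the distance within which the paper counted such reads. The site held 13 and 14 reads in siCtrl, 4 and 29 in siPaf1, 27 and 24 in siCdc73, and 4 in siSki8 libraries. Against the sense reads of Exosc3 its log2 change was -0.58 ± 1.72 for siPaf1, 0.80 ± 1.76 for siCdc73 and -3.25 ± 2.22 for siSki8, with adjusted p of 0.959, 0.944 and 1. Over 1109 such genes 0.0902%, 0.271% and 0% passed without the block, and 2.07%, 2.16% and 0.0902% with it.

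Related decay factors are given as lists for comparison. Over 52 such genes, 3'READS tested all 52 and RNA-seq 25. The lists include Wdr61, the target of the siSki8 siRNA, whose fall after siSki8 is the knockdown itself. It is among the genes counted after siSki8 in both assays, and in 3'READS no other gene of the 52 passed there with the block. With the block, 6, 6 and 2 of 25 passed in RNA-seq for siPaf1, siCdc73 and siSki8, against 32.5%, 39.9% and 5.43% of all genes. In 3'READS 4, 8 and 1 of 52 did, against 18.8%, 22.5% and 0.151%. Without it 0 passed in any list. At an unadjusted p under 0.05 without the block, 1, 4 and 3 of 25 did in RNA-seq and 4, 6 and 2 of 52 in 3'READS.

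The other exosome subunits were the list whose median lay lowest after siCdc73. Its median log2 change without the block was -1.36 over 3 genes in RNA-seq and -0.69 over 6 in 3'READS, beside -0.02 and 0.00 over all genes, and with the block 2 of 3 and 3 of 6 fell, against 20.5% and 11.8% of all genes, and 0 rose, against 19.4% and 10.8%. Exosc1, a cap subunit, had 87.9 and 76.3 CPM in 3'READS in siCtrl, 45.3 and 41.7 in siPaf1, 27.8 and 26.3 in siCdc73, and 82.7 in siSki8 cells. It fell after siCdc73 (-1.60 ± 0.28, adjusted p of 0.000922 by edgeR with the block) and after siPaf1 (-0.91 ± 0.27, adjusted p of 0.0265). In RNA-seq Exosc1 had 161 and 205 CPM in siCtrl, 106 and 157 in siPaf1, 67.6 and 74.7 in siCdc73, and 371 in siSki8 cells. Its siPaf1 change was not called there with the block, where Exosc8 was the 1 gene of the list that fell. Exosc8, a ring subunit, had 130 and 331 CPM in RNA-seq in siCtrl, 57.4 and 114 in siPaf1, 44.6 and 102 in siCdc73, and 336 in siSki8 cells. It fell after siPaf1 (-1.36 ± 0.24, adjusted p of 4.96e-05) and siCdc73 (-1.62 ± 0.24, adjusted p of 3.49e-06), and 3'READS gave it at most 3.60 CPM. Without the block their adjusted p lay between 0.156 and 0.345.

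Of the nuclear exosome cofactors, with the block 2, 1 and 1 of 6 rose in RNA-seq for siPaf1, siCdc73 and siSki8, against 16.3%, 19.4% and 2.93% of all genes. In 3'READS 0, 1 and 0 of 13 rose, against 9.74%, 10.8% and 0.0795%, and 0 fell in either assay, where 16.2%, 20.5% and 2.50% of all genes fell in RNA-seq and 9.08%, 11.8% and 0.0715% in 3'READS. Zfc3h1, a zinc-finger partner of Mtr4 in the adaptor for poly(A)+ nuclear RNA, rose after siCdc73 in RNA-seq and 3'READS (log2 changes of 1.08 ± 0.25 and 1.53 ± 0.41, adjusted p of 0.00101 and 0.0144). Rbm7, an RNA-binding subunit of the nuclear exosome targeting complex, rose after siSki8 in RNA-seq (1.23 ± 0.28, adjusted p of 0.00910). Among the decapping and 5'-to-3' decay genes, the exonuclease Xrn1 fell in 3'READS after siPaf1 and siCdc73 (-2.19 ± 0.26 and -1.84 ± 0.26, adjusted p of 7.13e-05 and 0.000211), from 10200 and 5660 CPM in siCtrl to 2160 and 1280 and to 3000 and 1500. These siCtrl levels stood far above the 374 and 164 CPM of Skiv2l2, for a reason not examined, and RNA-seq did not list Xrn1. In the same list Xrn2 rose after siCdc73 in 3'READS (1.53 ± 0.44, adjusted p of 0.0211). Its values after siPaf1 (1.19 ± 0.44, adjusted p of 0.0705 by edgeR with the block) and in the single siSki8 library (2.18 ± 0.525) were also above 0, without a call. With the block 0 of 10 rose and 1 fell there after siPaf1, against 9.74% and 9.08% of all genes. After siCdc73 1 rose and 1 fell, against 10.8% and 11.8%. Of the deadenylases, Cnot7, a catalytic subunit of the CCR4-NOT complex, rose after both knockdowns in both assays, by 0.71 ± 0.24 and 0.88 ± 0.24 in RNA-seq and 1.88 ± 0.33 and 1.78 ± 0.34 in 3'READS (adjusted p of 0.0244, 0.00415, 0.00125 and 0.00174). Others fell, such as Parn after siPaf1 in RNA-seq (-0.87 ± 0.27, adjusted p of 0.0141). In 3'READS Parn went the other way after siPaf1, with log2 changes within batches of 1.43 and 0.79. After siCdc73 Pan2 fell in RNA-seq (-0.65 ± 0.25, 0.0357) and Cnot6l in 3'READS (-1.02 ± 0.32, 0.0327). With the block 1 of 8 rose and 2 fell in RNA-seq after siPaf1, and 1 rose and 1 fell after siCdc73. In 3'READS 1 of 10 rose and 0 fell, and 1 rose and 1 fell. The shares of all genes are those given above.

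The stalled ribosome factors listed with Ski8 were called in different knockdowns and assays, so their directions are not set against each other. Pelo, the partner of Hbs1l on stalled ribosomes, rose after siCdc73 in RNA-seq with the block (0.90 ± 0.25, adjusted p of 0.00477). It was 1 of 2 tested genes of the list, against 19.4% of all genes that rose. Ltn1, an E3 ligase for stalled nascent chains, fell after siPaf1 in 3'READS with the block (-1.13 ± 0.30, adjusted p of 0.0155), as 1 of 5, against 9.08% of all genes that fell. Wdr61 itself was the only gene of that list that passed after siSki8, in both assays. In the nonsense-mediated decay list 0 of 4 genes in RNA-seq and 0 of 8 in 3'READS passed with the block after any knockdown, against the same 32.5%, 39.9% and 5.43% of all genes in RNA-seq and 18.8%, 22.5% and 0.151% in 3'READS for siPaf1, siCdc73 and siSki8. Without the block 0 did so also at an unadjusted p under 0.05.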

How the data were processed

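RNA-seq and 3'READS tables of C2C12 cells were used, grouped by the labels. Bowtie2 (version not given in the sources used here) served the authors to align both kinds of library to mm9, and uniquely mapped reads were kept. For RNA-seq the authors deposited raw counts for each RefSeq transcript, taken from coding sequence for protein-coding genes, and RPKM values, which divide by length and by mapped reads. For 3'READS they deposited counts of PASS reads, which carry untemplated Ts, per poly(A) site. Every per-sample column matched a sample (0 unmatched). The ChIP-seq samples were not used here. In RNA-seq the transcript of highest mean count stood for a gene, in 3'READS the sum of its sense sites.

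Counts were tested in R 4.3.3 with edgeR 4.0.16 (TMM, filter on low counts, quasi-likelihood test with its default prior count), with DESeq2 1.42.0 as an alternative and Benjamini-Hochberg adjustment over all features. A prior count of 2 entered only the log2 levels per library and the batch differences and within-batch changes of level taken from them. All 7 libraries entered each fit. Isoform tests used 1 coefficient per library and the interaction of isoform and knockdown. CDS-APA and 3'UTR-APA dropped sites below 5% of a gene's reads and required a mean of 20 reads per library, with all sites kept as an alternative. Single sites needed 10 reads in all and antisense sites 10. Within-batch ratios had 0.5 added. Sequences and figures were made with Python 3.11.15, pandas 2.3.3 and matplotlib 3.10.9. The fits were tested on simulated data.

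The batch numbers pair the libraries by the labels. As a check, log2 batch differences of all tested genes, set side by side for each pair of groups, gave r of 0.620 to 0.748 in RNA-seq and 0.432 to 0.610 in 3'READS. The biological coefficient of variation fell with the block from 0.397 to 0.179 in RNA-seq and from 0.515 to 0.247 in 3'READS.

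The members and lists were chosen with earlier results of these data known. Genes named are the 10 members in each assay that lists them and, of each list of related genes, at most 1 in each direction per knockdown and assay, with the smallest p in the blocked fit among those changed the same way in both batches. Sites named hold at least 5% of a gene's reads in any library or were called. Depth limits most the RNA-seq of siPaf1 batch 2 and the 3'READS of siCdc73 batch 1.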

Additional observations from a re-analysis of the deposited data

How the results depend on the processing

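With the batch as a replicate block, the number of genes or sites of the group called moved from 0 to 1 in RNA-seq after siPaf1 and after siCdc73, in CDS-APA after siCdc73 and for single sites after siCdc73. With the block and all upstream sites kept, a setting chosen after seeing the data, the CDS-APA call of Exosc10 after siCdc73 was lost (-2.36) and 1 gene, Hbs1l, was called after siPaf1. The pooled reads rule of more than 1.4-fold and Fisher's exact p under 0.01 also called 1 gene in RNA-seq after each of siPaf1 and siCdc73. Apart from the direct contrast of siPaf1 and siCdc73 for Skiv2l2, given above, the block changed no other call of the group. Of 190 counts of calls under an alternative, 183 stayed at the reported value. Of 733 single values, 671 kept direction and side of the threshold, 54 turned sign and 8 gained a call. The cause of each turn was not tested. In RNA-seq, Hbs1l after siCdc73 was -0.15 with library size alone and -0.20 by pooled reads, and Exosc4 after siSki8 was -0.13 and -0.12 in the same settings and -0.01 in batch 2 alone, a setting chosen after seeing the data. In 3'READS after siCdc73, Dis3 was 0.01 with the block and 0.01 over the 3'-most exon alone, and Exosc10 was 0.05 with the block, 0.02 by DESeq2 and 0.82 over the 3'-most exon alone.

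Without 1 library at a time, these log2 changes spanned 0. In RNA-seq after siPaf1, Exosc4 ran from -0.33 to 0.14 and Hbs1l from -0.60 to 0.11, after siCdc73 they ran from -0.45 to 0.20 and from -0.34 to 0.43, and after siSki8 Exosc4 ran from -0.04 to 0.46. In 3'READS after siPaf1, Dis3 ran from -0.68 to 0.20, Exosc10 from -0.34 to 0.48, Exosc2 from -0.98 to 0.80, Exosc3 from -0.58 to 0.60, Exosc4 from -0.99 to 0.13, Exosc9 from -0.79 to 0.24, Hbs1l from -1.09 to 0.83 and Skiv2l from -0.15 to 0.52. After siCdc73, Dis3 ran from -0.42 to 0.45, Exosc10 from -0.37 to 0.45, Exosc3 from -0.42 to 0.85, Exosc4 from -0.86 to 0.10, Exosc9 from -0.05 to 0.98, Hbs1l from -1.44 to 1.23, Skiv2l from -0.14 to 0.51 and Skiv2l2 from -0.41 to 0.79. After siSki8, Exosc10 ran from -0.31 to 0.50 and Exosc9 from -0.11 to 0.91. In 3'UTR-APA, Hbs1l ran from -0.67 to 0.30 after siPaf1, -0.65 to 0.32 after siCdc73 and -0.02 to 0.95 after siSki8, and after siCdc73 Exosc4 ran from -0.29 to 0.76 and Exosc9 from -1.09 to 0.09. The Hbs1l intron 7 site after siSki8 ran from -1.15 to 1.09, and the antisense site of Exosc3 from -1.46 to 0.27 after siPaf1 and from -0.56 to 2.17 after siCdc73. Where a library is left out of a pair, the remaining one is assumed to vary like the other groups. Depth limits Skiv2l, Exosc2, Exosc10 and Ttc37 in 3'READS most.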
